A study of Mus musculus with 4 samples.

Results

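Heat shock proteins and chaperones were followed in CD4 cells of sanroque and wild type mice, as 55 genes of the 12393 that the array's annotation named. A probe set, the group of short probes that reports 1 transcript, was used where it was annotated to a member gene alone. By this rule 53 of the 55 genes had 120 probe sets, and 104 of these, for 51 genes, were bright enough to be tested. The genes were divided into 14 cytosolic chaperones that stress induces, 15 cytosolic chaperones made constitutively, 8 subunits of the cytosolic CCT ring, 5 mitochondrial chaperones, 11 chaperones of the endoplasmic reticulum and 2 heat shock factors.

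Chaperones bind unfolded or newly made proteins and help them to fold. In the cytosol, Hsp70 proteins take turns at a client with J-domain partners (the Dnaj proteins), which deliver the client and start ATP hydrolysis, and with exchange factors, which release the nucleotide. Hsp90 acts on later steps, on kinases and receptors among other clients. Heat and other stresses that unfold proteins free the transcription factor Hsf1, which binds heat shock elements in the promoters of inducible chaperone genes. The endoplasmic reticulum has its own Hsp70 and Hsp90 and a separate control, the unfolded protein response. T cells use both systems during activation, and inducible chaperone mRNAs are also known to change when cells are handled or warmed.

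Sanroque (san/san) mice are homozygous for a recessive variant from a chemical mutagenesis screen with ENU in C57BL/6 mice, in which the pedigree was picked for antinuclear autoantibodies; the variant lies in Rc3h1, the gene of the RNA-binding protein Roquin-1. Wild type mice are labelled +/+. Each genotype had 2 arrays of RNA from CD4 cells, and the labels give neither the age or sex of the sampled mice nor any treatment. Nor is it stated that same-genotype arrays came from separate mice, so the p-values cover array-to-array spread alone, which may be technical. Wild type array 2, but not wild type array 1, carries the letters CBA in its experiment information, which the labels leave unexplained. Without that array, Hspa1a had a log2 change of -3.71. That comparison rests on 1 wild type array of unstated background, so it cannot show whether a strain difference plays a part. The strain background of the sampled mice is not stated for either genotype. Both arrays numbered 1 were hybridised on one day and both numbered 2 on another. The experiment information of the arrays numbered 1 has the word sorted in the sample type and a recorded wash protocol. That of the arrays numbered 2 has neither, so the day cannot be told apart from these entries.

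The signals are intensities in arbitrary units that the authors had scaled, with trimmed means of 99.59 to 99.97 and medians of 30.8 to 40.4 per array. The CD4 T cell markers were present on all arrays: Cd4 itself gave 533.3 and 613.5 in wild type and 585.9 and 570.2 in sanroque, and 0 of 7 measured CD4 T cell markers passed the test. Summed signals of other marker lists did move with genotype. The 7 myeloid markers with a probe set summed to 1032.9 and 1135.6 in wild type and to 2436.9 and 2477.5 in sanroque, with no marker at 0. Of the 6 tested, 4 rose (6 with the day as a block). The 3 red cell markers with a probe set summed to 775.8 and 769.4 in wild type and to 1166.0 and 1280.9 in sanroque, and 0 of the 2 tested passed (2 rose with the day as a block). Of 5 B cell markers 0 passed, with or without the block. Of 4 markers of CD8 T or NK cells 0 passed, and 1 rose with the block, Nkg7, at 76.2 and 73.1 in wild type and 126.9 and 139.9 in sanroque; their summed signals were 282.3 and 253.1 in wild type and 336.2 and 318.4 in sanroque. The summed signal of 14 immediate early genes, which respond to activation and also to cell handling, was 11378.8 and 13557.6 in wild type and 3111.0 and 3356.0 in sanroque. Of the 12 tested, 9 fell (11 with the day as a block). Egr1 ran the other way, at 395.8 and 391.1 in wild type and 585.7 and 509.2 in sanroque, and did not pass (limma adjusted p = 0.372). These shifts run alongside every result given here, and their part in those results was not tested. In such bulk RNA, fewer cells of a type and less RNA per cell cannot be told apart.

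In sanroque, 8 of the 104 chaperone probe sets were lower and 0 were higher (limma, adjusted p under 0.05 over all 13579 probe sets tested). At an unadjusted p under 0.05, 20 (19.2%) were lower and 0 higher, beside 4.27% and 5.62% of all probe sets. The 8 make 7.69% of the measured chaperone probe sets, beside 0.39% of all probe sets that were called lower and 0.67% that were called higher. They belong to 6 genes: the inducible Hsp70 genes Hspa1a and Hspa1b, their J-domain partners Dnajb1 and Dnajb4, the constitutive Hsp70 gene Hspa8 by a single probe set of 4, and Dnajb9, a J-domain partner in the endoplasmic reticulum. The 4 probe sets of Hspa1a and Hspa1b are among the 8, and these near-identical genes are not independent of each other. With each gene represented by its brightest probe set, 4 of 51 genes were lower and 0 higher, beside 0.331% and 0.776% of all 7860 genes. With the hybridisation day as a block in the fit, 17 chaperone probe sets were lower and 0 higher, the 8 among them (2.68% of all probe sets lower and 3.59% higher). By the brightest probe set, 9 genes were then lower and 0 higher, beside 2.12% and 3.92% of all genes. With 4 arrays, limma judged each probe set mostly by a spread pooled over all probe sets, both without and with the block. Its p-values therefore rest little on the replicate spread of the single probe set. The smaller p-values with the block are not added replication. The same holds for fits with an array left out and for a block on title wording. The titles of wild type array 1 and sanroque array 2 carry the letters pt, which those of the other arrays lack. Both sanroque arrays were below both wild type arrays, with an absolute log2 change of at least 0.5, for 22 chaperone probe sets and above for 1, beside 4.51% and 6.89% of all probe sets. By genes these counts were 9 and 0, beside 3.4% and 7.38%.

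**Figure D1:**
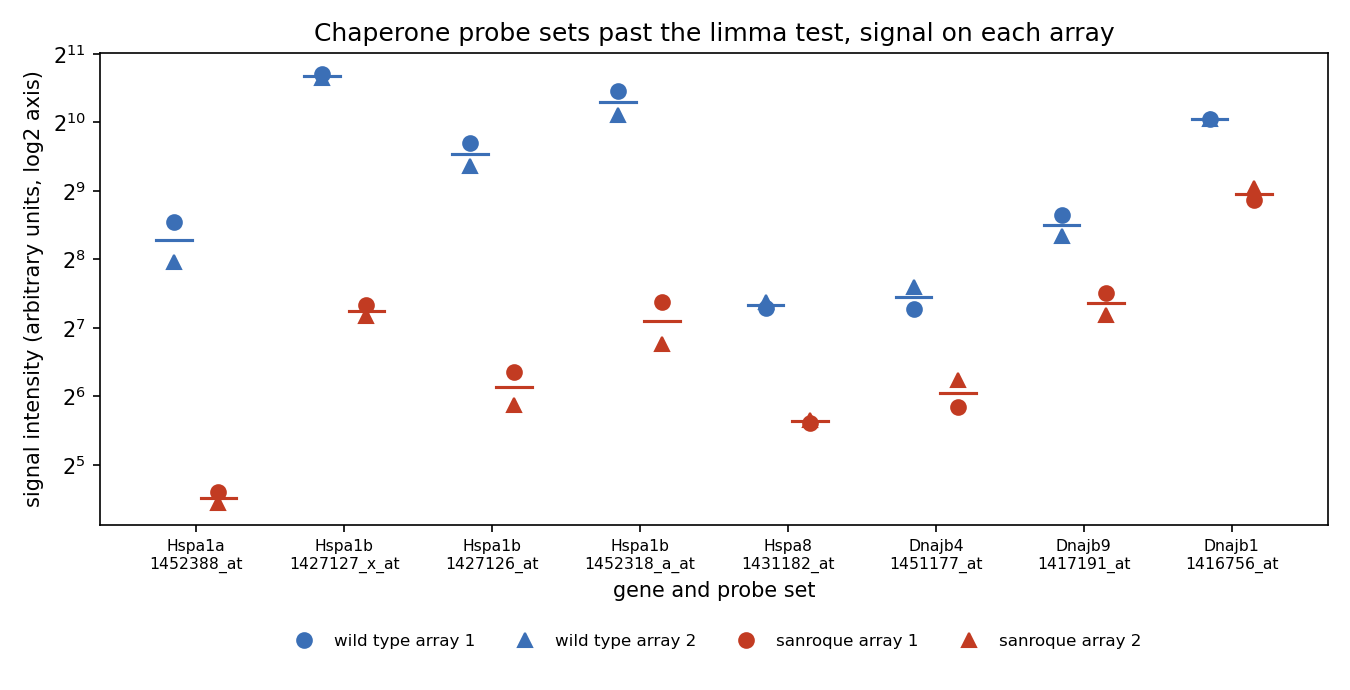
Signal intensity on each array (log2 axis, arbitrary units) for the 8 chaperone probe sets past the limma test. Circles are arrays numbered 1, triangles arrays numbered 2, and short lines the means of 2 arrays; both sanroque arrays lie below both wild type arrays in every column, and the 4 probe sets of Hspa1a and Hspa1b have the widest gaps.

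Hspa1a and Hspa1b encode almost the same protein, the cytosolic Hsp70 that heat induces, and they carried the largest differences among the members. Hspa1a had signals of 372.0 and 247.8 in wild type and of 24.2 and 21.7 in sanroque. Both sanroque arrays lay far below both wild type arrays. The mean signal was 309.9 ± 87.8 (SD, n = 2) in wild type and 22.95 ± 1.77 (SD, n = 2) in sanroque, 13.5-fold lower, with a log2 change of -3.42 (SE 0.239, limma adjusted p = 3.28e-05). Both sanroque signals lie close to the brightness filter of 21.3, so the size of this fold is uncertain. Here and below, log2 changes are sanroque minus wild type on the scale of log2(signal + 6), which understates the change of dim probe sets.

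Hspa1b was read by 3 probe sets. The brightest (1427127_x_at) gave 1661.8 and 1595.6 in wild type and 160.5 and 143.9 in sanroque, 10.7-fold lower (log2 -3.37, SE 0.169, limma adjusted p = 3.72e-06). Probe set 1427126_at gave 826.2 and 656.7 in wild type against 81.5 and 58.8 in sanroque, 10.6-fold lower. Probe set 1452318_a_at gave 1403.5 and 1099.9 against 166.9 and 108.6, 9.09-fold lower. The difference had nearly the same size in all 3 and on each day, from -3.03 to -3.42 on the log2 scale. Among the 13579 probe sets tested, the 4 probe sets of Hspa1a and Hspa1b ranked 3, 4, 5 and 7 from the lowest log2 change, and all 4 passed under each of 13 alternative settings, with a largest adjusted p of 0.0141. Because the genes are near-identical copies, signal of one may be read by probes for the other, and their values are not independent of each other.

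The promoters of this pair are copies too. They are shown because they are the promoters of the members with the largest differences, as the 250 bases before the start site in RefSeq, with letters of a heat shock element in capitals. The windows are at chr17:34972157-34972406 for Hspa1a and chr17:34959239-34959488 for Hspa1b, both on the minus strand of build GRCm38.p6.
Hspa1a: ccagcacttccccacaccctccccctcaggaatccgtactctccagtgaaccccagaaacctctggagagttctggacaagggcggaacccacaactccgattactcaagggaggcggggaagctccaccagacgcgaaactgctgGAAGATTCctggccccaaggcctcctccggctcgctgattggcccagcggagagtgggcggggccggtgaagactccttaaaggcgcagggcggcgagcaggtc
Hspa1b: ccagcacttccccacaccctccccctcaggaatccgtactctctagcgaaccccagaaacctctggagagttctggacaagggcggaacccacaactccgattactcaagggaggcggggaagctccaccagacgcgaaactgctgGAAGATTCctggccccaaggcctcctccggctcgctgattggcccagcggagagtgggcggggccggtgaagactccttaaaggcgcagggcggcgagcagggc
The pair was equal at 247 of the 250 bases (98.8%), and the capitals begin at position -104 from the start site in each.

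Dnajb1 and Dnajb4 encode cytosolic J-domain proteins that partner Hsp70. Dnajb1 probe set 1416756_at gave 1062.3 and 1057.7 in wild type and 465.8 and 528.5 in sanroque. The genotypes did not overlap, and the sanroque mean was 2.13-fold lower (log2 -1.09, SE 0.17, limma adjusted p = 0.012). Its call was lost without sanroque array 1 (adjusted p = 0.096), with arrays centred on their median (adjusted p = 0.104) and without the variance trend (adjusted p = 0.161). The brightest Dnajb1 probe set (1416755_at) gave 887.2 and 1196.7 in wild type against 517.7 and 650.6 in sanroque, with a log2 change of -0.82. It did not pass (limma adjusted p = 0.11), except with the day as a block (adjusted p = 0.000181) or without wild type array 1 (adjusted p = 0.00207).

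Dnajb4 showed the same order on both of its probe sets. The brighter (1451177_at) gave 155.1 and 194.1 in wild type and 57.3 and 75.3 in sanroque, 2.63-fold lower (log2 -1.32, SE 0.219, limma adjusted p = 0.016). This call was lost without a filter on dim probe sets (adjusted p = 0.0872) or without the variance trend (adjusted p = 0.148). The other (1431734_a_at) gave 82.8 and 95.2 against 30.6 and 46.5, log2 -1.11, and did not pass (limma adjusted p = 0.0945; 0.000921 with the day as a block and 0.0309 with arrays centred on their median).

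The remaining inducible genes did not pass the test, and by their brightest probe sets their changes were smaller. Hsph1, an Hsp110 protein that acts as an exchange factor for Hsp70, gave 710.5 and 906.1 in wild type and 502.9 and 545.7 in sanroque, log2 -0.61 (limma adjusted p = 0.218; 0.0063 with the day as a block and 0.0363 without wild type array 1). Its second probe set (1423566_a_at) gave 402.4 and 422.9 against 260.2 and 270.8, log2 -0.62 (limma adjusted p = 0.152; 0.00747 with the day as a block). On both probe sets the sanroque arrays were below the wild type arrays. Dnaja1, a further J-domain partner of Hsp70, was also below in sanroque on both probe sets; the brighter (1416288_at) gave 1681.0 and 2007.2 against 1205.2 and 1495.4, log2 -0.45 (limma adjusted p = 0.468; 0.0441 with the day as a block), and the other (1460179_at) had a log2 change of -0.14.

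Hsp90aa1 encodes the stress-inducible cytosolic Hsp90, and its 3 probe sets differed from each other. The brightest (1438902_a_at) gave 2299.6 and 1682.5 in wild type and 1994.9 and 1500.4 in sanroque, which overlap, log2 -0.18 (limma adjusted p = 0.882). Probe set 1426645_at gave 1889.2 and 1941.0 against 1386.7 and 1726.8, log2 -0.31 (limma adjusted p = 0.666). Probe set 1437497_a_at gave 932.5 and 1312.6 against 666.5 and 498.1, log2 -0.93 (limma adjusted p = 0.0832). The last of these passed with the day as a block (adjusted p = 0.000232), with a block on title wording (adjusted p = 0.037) and without wild type array 1 (adjusted p = 0.00035); its difference was -0.48 on day 1 and -1.39 on day 2.

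Hsp90 co-chaperones of the inducible set had no call. Stip1, which links Hsp70 to Hsp90, gave 316.7 and 285.1 in wild type against 219.3 and 240.6 in sanroque, log2 -0.38 (limma adjusted p = 0.518). Chordc1, a further Hsp90 co-chaperone, gave 610.1 and 819.7 against 553.9 and 542.1, log2 -0.36 (limma adjusted p = 0.588). Ahsa1, which stimulates the Hsp90 ATPase, had a log2 change of -0.17, with overlapping genotypes. Values above 0 were seen for Bag3 (0.06), an exchange factor for Hsp70, the J-domain gene Dnajb5 (0.18), the small heat shock protein gene Hspb1 (0.27) and the Hsp110 family gene Hspa4l (0.45). Hspa4l gave 58.9 and 73.6 in wild type against 102.1 and 83.7 in sanroque, the single inducible gene whose brightest probe set lay above in both sanroque arrays, and it did not pass (limma adjusted p = 0.569).

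Counted together, 6 of 24 inducible probe sets (25.0%) passed as lower and 0 as higher, beside 0.39% and 0.67% of all probe sets. With the day as a block, 12 passed as lower and 0 as higher, beside 2.68% and 3.59% of all probe sets. By brightest probe set, 3 of 14 genes were lower and 0 higher, beside 0.331% and 0.776% of all genes. With the day as a block, 6 genes were lower and 0 higher, beside 2.12% and 3.92% of all genes. Both sanroque arrays were below both wild type arrays for 16 of the 24 probe sets (66.7%), beside 17.7% of all probe sets tested, and above for 3 (12.5%), beside 21.0%. The median log2 change of the 14 genes was -0.37, against 0.03 for all genes tested. Of the 14, 10 were negative on both days, a count that was not made over all genes.

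**Figure D2:**
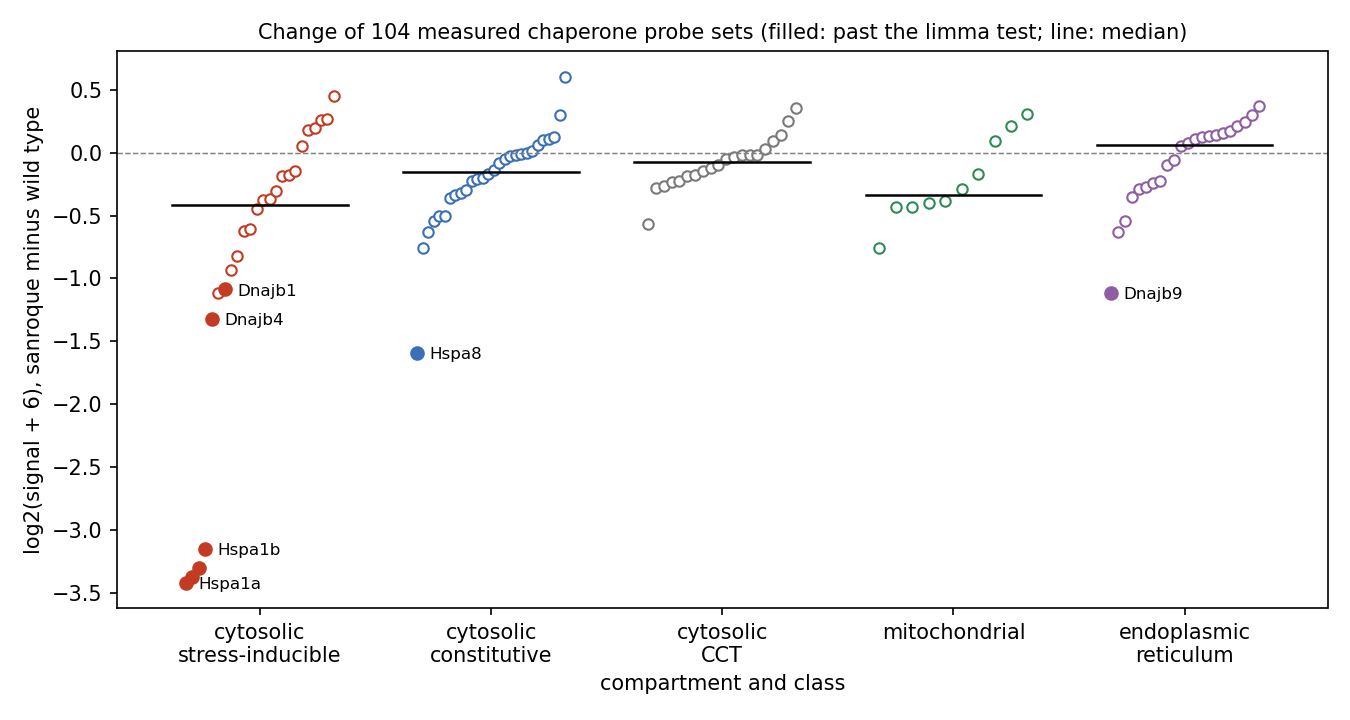
Log2 change (sanroque minus wild type) of the 104 measured chaperone probe sets by class, sorted within each class. Filled points passed the limma test and black lines are class medians; the 4 lowest points are Hspa1a and Hspa1b, and the median of the inducible probe sets is -0.415 while that of the endoplasmic reticulum is 0.06.

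Hspa8 is the Hsp70 that cells make without stress, and 3 of its 4 probe sets did not pass. The brightest (1455789_x_at) gave 3134.9 and 4073.7 in wild type and 3576.7 and 3487.1 in sanroque, log2 -0.02 (limma adjusted p = 0.992). Its genotypes overlapped, and its sign turned positive under quantile normalization and when wild type array 2 or sanroque array 2 was left out. Probe set 1420623_x_at had a log2 change of -0.21 and 1420622_a_at of -0.30, neither of which passed (limma adjusted p = 0.819 and 0.744). The fourth, 1431182_at, stood apart: it gave 156.4 and 166.7 in wild type and 49.0 and 50.3 in sanroque, 3.25-fold lower (log2 -1.59, SE 0.203, limma adjusted p = 0.00337). It passed under all 13 alternatives, with a largest adjusted p of 0.0459, and ranked 27 from the lowest log2 change. The files do not say which part of the Hspa8 transcript each probe set reads.

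**Figure D3:**
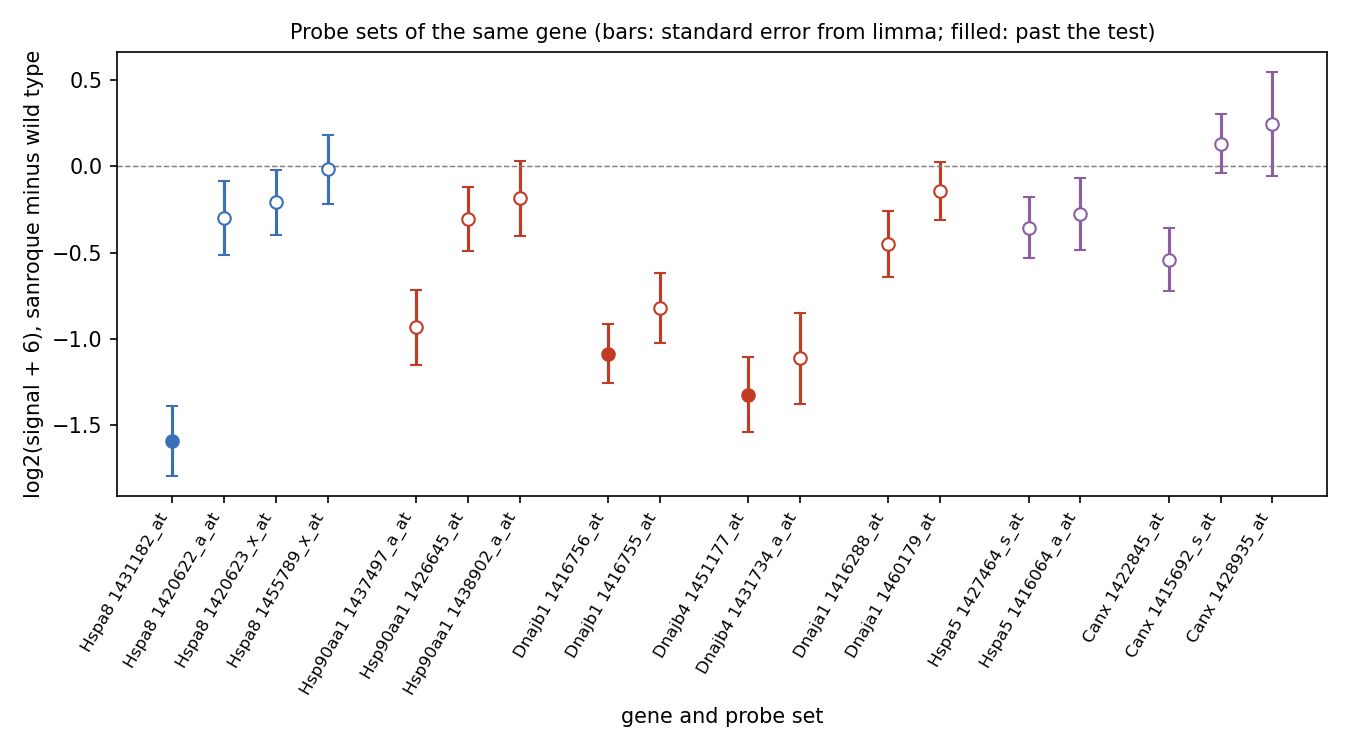
Log2 change (sanroque minus wild type) of each measured probe set of 7 chaperone genes, with bars for limma's standard error and filled points past the test. Hspa8 spans -1.59 to -0.02 over 4 probe sets and Hsp90aa1 -0.93 to -0.18 over 3, while the error bars overlap within the pairs of Dnajb1, Dnajb4 and Hspa5.

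No other constitutive chaperone passed. Hspbp1, an Hsp70 exchange factor, gave 168.4 and 110.6 in wild type and 100.2 and 74.0 in sanroque, log2 -0.63 (limma adjusted p = 0.414; 0.0269 with the day as a block). St13, the Hsp70-interacting protein Hip, gave 214.2 and 266.5 against 137.9 and 201.9, log2 -0.50 (limma adjusted p = 0.486). In both genes the sanroque arrays were below the wild type arrays, by a narrow margin. The brightest probe sets of the other 10 measured genes besides Hspa8 ran from -0.32 for the J-domain gene Dnaja2 to 0.10 for Dnajc2, which works at the ribosome. Among these are Cdc37 (-0.08), which brings kinases to Hsp90, the exchange factor gene Bag1 (-0.0017), and Hspa4 (-0.14), an Hsp110 protein. Dnaja2 also showed how far probe sets of a gene can part: 1417183_at had -0.32 and the dimmer 1417182_at 0.60, and neither passed.

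Of the 28 constitutive probe sets, 1 (3.57%) passed as lower and 0 as higher, beside 0.39% and 0.67% of all probe sets. At an unadjusted p under 0.05, 3 (10.7%) were lower and 0 higher, beside 4.27% and 5.62% of all probe sets. Sanroque was lower without overlap for 9 of the 28 (32.1%), beside 17.7% of all probe sets, and higher for 5 (17.9%), near the 21.0% of all. The median log2 change of the 13 genes was -0.08, and its sign was not stable: it was 0.024 without wild type array 2 and 0.0257 without sanroque array 1. Hsp90ab1, the constitutive cytosolic Hsp90, had no probe set annotated to it alone. Hspa2, an Hsp70 known from testis, was below the brightness filter, with 41.5 and 14.9 in wild type and 16.6 and 5.4 in sanroque, and was not tested.

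The CCT ring, in which actin and tubulin fold, had no probe set past the test in either direction, nor any at an unadjusted p under 0.05. All 8 subunits were measured, by 20 probe sets. Cct2 held the brightest of these (1433535_x_at), with 1360.6 and 1262.0 in wild type and 1464.7 and 1656.0 in sanroque, log2 0.25 (limma adjusted p = 0.736). Its other 2 probe sets had -0.04 and -0.19, so its sign depends on the probe set. By their brightest probe sets, the other 7 subunits lay between -0.27 (Cct3) and 0.03 (Cct4), with Tcp1 at -0.09, Cct5 at -0.05, Cct6a at -0.23, Cct7 at -0.15 and Cct8 at -0.17. Over all 20 probe sets the range was -0.57 (Cct3 1426067_x_at) to 0.36 (Cct4 1456572_x_at). The median over the 8 genes was -0.12, and it moved to -0.0285 without sanroque array 1 and -0.186 without sanroque array 2.

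Mitochondrial chaperones had no probe set past the limma test in either direction. At an unadjusted p under 0.05, 2 of 10 were lower and 0 higher, beside 4.27% and 5.62% of all probe sets. Hspe1, the Hsp10 lid of the mitochondrial folding chamber, gave 1095.9 and 1014.7 in wild type and 869.2 and 858.8 in sanroque, log2 -0.29 (limma adjusted p = 0.653). Hspd1, the Hsp60 that forms the chamber, gave 755.7 and 933.1 against 535.1 and 724.0, log2 -0.43 (limma adjusted p = 0.526). Hspa9, the mitochondrial Hsp70 that pulls in imported proteins, gave 403.6 and 468.5 against 305.7 and 359.2, log2 -0.39 (limma adjusted p = 0.519). All 3 genes had both sanroque arrays below both wild type arrays, on each of their 6 tested probe sets. Over the class, sanroque lay below without overlap for 6 of 10 probe sets and above for 2, beside 17.7% and 21.0% of all probe sets. Trap1, the mitochondrial Hsp90, ran the other way on its brighter probe set, with 203.0 and 211.7 against 276.5 and 240.2, log2 0.31 (limma adjusted p = 0.65). The J-domain gene Dnaja3 had 0.09 with overlapping genotypes.

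**Figure D4:**
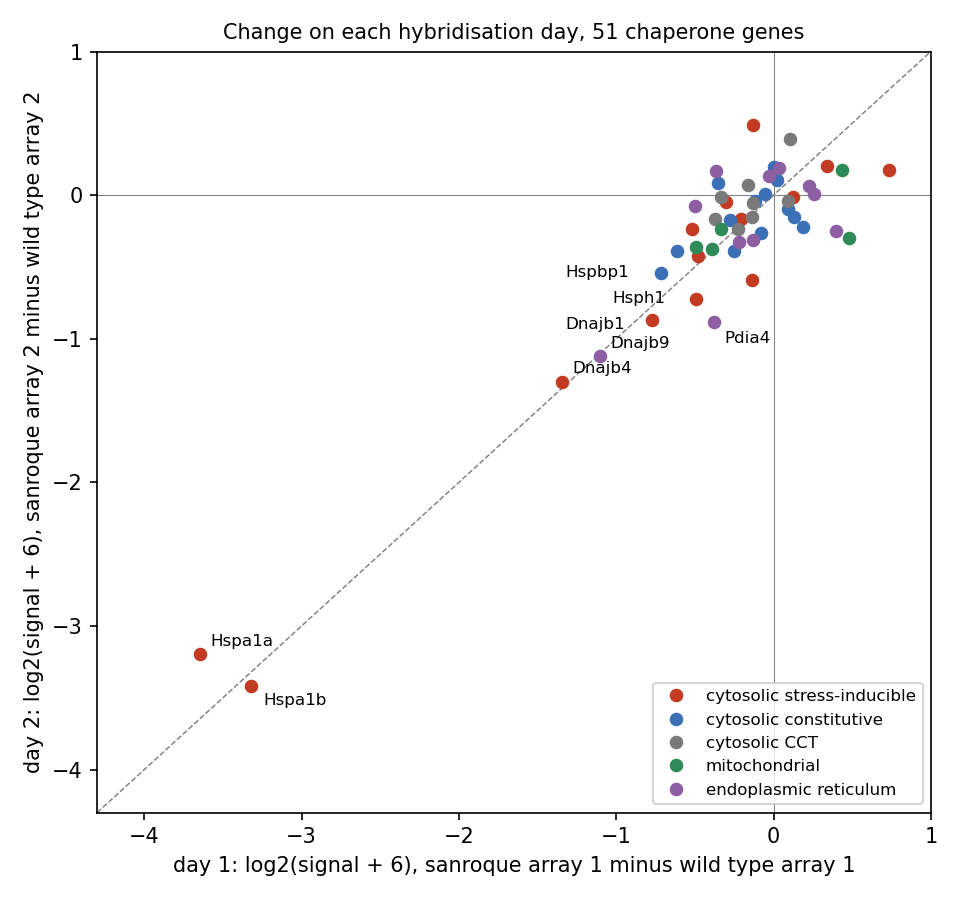
Log2 change within day 1 (horizontal axis, sanroque array 1 minus wild type array 1) and within day 2 (vertical axis, the same for arrays 2) for the brightest probe set of 51 chaperone genes, coloured by class. Hspa1a and Hspa1b lie below -3 on both days, and Dnajb4 and Dnajb9 below -1; the dashed diagonal marks equal change.

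In the endoplasmic reticulum, Dnajb9 was the 1 gene past the test. It encodes ERdj4, a J-domain protein that partners the local Hsp70 and is known as a target of the unfolded protein response. It gave 399.0 and 323.3 in wild type and 182.3 and 145.4 in sanroque, without overlap and 2.2-fold lower (log2 -1.11, SE 0.196, limma adjusted p = 0.0231). The difference was -1.11 on day 1 and -1.12 on day 2. The call was lost without sanroque array 2 (adjusted p = 0.102), without a filter on dim probe sets (adjusted p = 0.0872) and without the variance trend (adjusted p = 0.207).

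The main chaperones of this compartment did not pass. Hspa5 (BiP), its Hsp70, gave 1772.3 and 2372.5 in wild type and 1518.1 and 1886.3 in sanroque, log2 -0.28 (limma adjusted p = 0.755), and its second probe set had -0.36. Hsp90b1, its Hsp90, gave 595.9 and 423.1 against 462.0 and 475.8, log2 -0.10 (limma adjusted p = 0.943), and its second probe set had 0.13. Pdia4, a disulfide isomerase, gave 168.4 and 212.7 against 128.2 and 112.5, with both sanroque arrays lower, log2 -0.63 (limma adjusted p = 0.254; 0.0216 with the day as a block). Canx, the lectin chaperone calnexin, split by probe set. Probe set 1422845_at gave 279.6 and 292.0 against 214.7 and 176.2, log2 -0.54 (limma adjusted p = 0.309; 0.0346 with the day as a block), whereas its brightest had 0.13 and its dimmest 0.25.

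The other genes of the endoplasmic reticulum had small changes by their brightest probe sets: -0.22 for the isomerase gene Pdia3, 0.05 for Pdia6, 0.11 for Calr (the lectin chaperone calreticulin), -0.29 for Dnajb11, 0.07 for Dnajc1 and 0.14 for Dnajc3. Of 22 probe sets, 1 (4.55%) passed as lower and 0 as higher, beside 0.39% and 0.67% of all. At an unadjusted p under 0.05, 3 (13.6%) were lower and 0 higher, beside 4.27% and 5.62% of all. Sanroque lay below without overlap for 6 (27.3%) and above for 7 (31.8%), beside 17.7% and 21.0%. The median was -0.10 over the 11 genes and 0.06 over the 22 probe sets, so its sign depends on how a gene is represented. The gene median was -0.211 without wild type array 1 and -0.265 without sanroque array 2.

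The heat shock factors could not be compared. Hsf1 had no probe set annotated to it alone, and Hsf2 was below the brightness filter, with 4.0 and 5.6 in wild type and 10.3 and 0.6 in sanroque. Over all 51 measured members, 36 genes (70.6%) had a negative log2 change, beside 45.8% of all genes tested. Of the 51, 29 were negative on both days, a count that was not made over all genes. Both sanroque arrays lay below both wild type arrays for 21 genes, beside 16.3% of all genes, and above for 6, beside 22.3%. The median change of the members was -0.17.

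Heat shock element letters were searched in the RefSeq promoters (GRCm38.p6), in windows of 300 bases from 250 before to 50 after the start site. The 2-unit letters were TTCNNGAA or GAANNTTC, where N is any base, and the 3-unit letters were the first of these followed by NNTTC or the second followed by NNGAA. Both strands were covered, since each 2-unit form is its own reverse complement and the 3-unit forms are each other's. Every 3-unit match also contains 2-unit matches. Of the 55 members, 46 had an entry. A 2-unit match stood in 15 of the 46 (32.6%), beside 17.0% of all 27025 genes of the table, and a 3-unit match in 5 (10.9%), beside 0.662%. By class, the 2-unit letters were in 8 of 13 inducible genes (61.5%), 2 of 10 constitutive, 3 of 7 CCT, 2 of 4 mitochondrial and 0 of 11 endoplasmic reticulum genes. The table describes letters only, and a match is not a bound site.

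The stretches below show matches upstream of the start site in members with and without a call, with the matched letters in capitals.
Dnajb4: ttcgttcgttcgctgTTCTAGAAagtaca
Dnaja1: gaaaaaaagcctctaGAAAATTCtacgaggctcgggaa
Hsph1: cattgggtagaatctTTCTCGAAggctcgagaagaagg
Hspb1: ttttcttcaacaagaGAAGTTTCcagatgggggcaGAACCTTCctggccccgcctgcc
Dnajb6: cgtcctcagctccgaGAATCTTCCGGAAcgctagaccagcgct
Hspe1: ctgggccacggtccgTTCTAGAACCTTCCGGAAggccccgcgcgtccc
They lie at chr3:152193846-152193874 (minus strand) for Dnajb4, chr4:40722329-40722366 (plus) for Dnaja1, chr5:149636347-149636384 (minus) for Hsph1, chr5:135887787-135887844 (plus) for Hspb1, chr5:29735837-29735879 (plus) for Dnajb6 and chr1:55088044-55088091 (plus) for Hspe1, all in GRCm38.p6.

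Matches were found in genes with and without a call. Of the genes with a call, Hspa1a, Hspa1b and Dnajb4 had a 2-unit match, the last in 1 of its 2 windows. Dnajb1 and Dnajb9 had no match in theirs, and Hspa8 had no entry and was not searched. The 3-unit letters were found in Chordc1, Hsph1, Dnajb6, Hspd1 and Hspe1, none of which had a call in the fit without a block on all 4 arrays. Hspd1 and Hspe1 are neighbours on opposite strands, and their windows overlap and hold the same 3 matches. Hspb1 and Bag3 had a match, with log2 changes of 0.27 and 0.06.

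**Figure D5:**
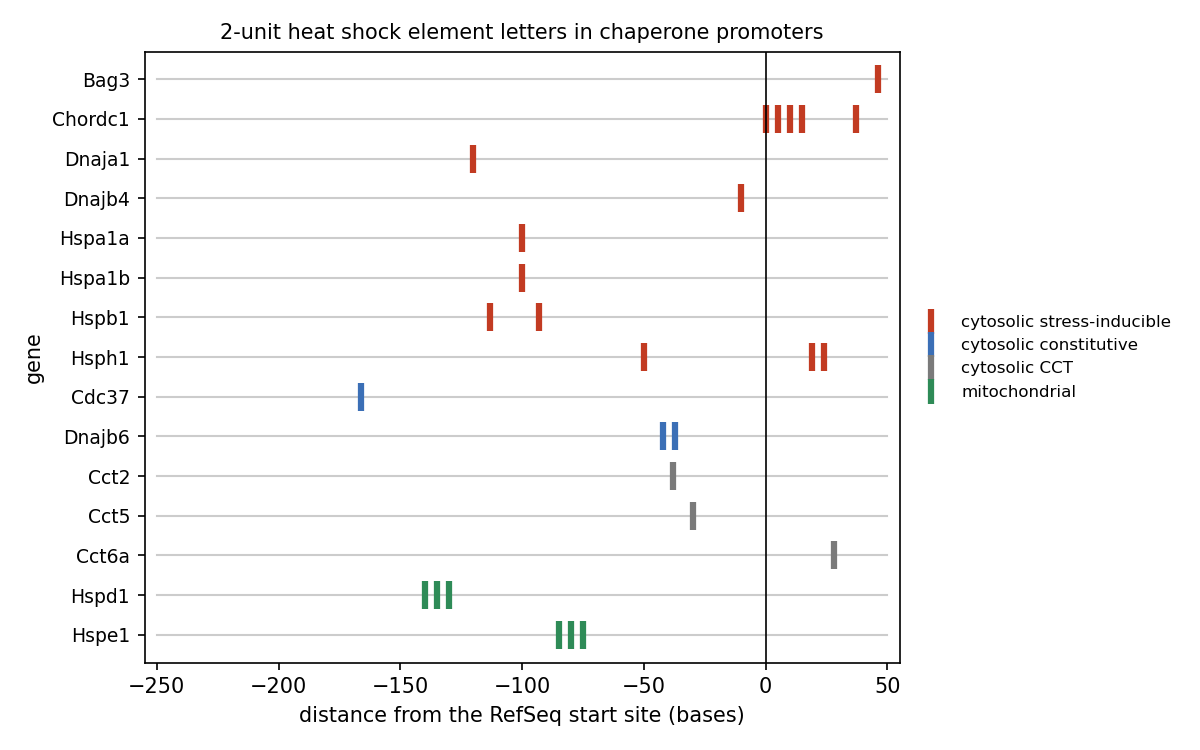
Positions of 2-unit heat shock element letters (bars) in the promoters of the 15 members that hold any, as distance in bases from the RefSeq start site, over windows from 250 before to 50 after it. Where a gene has several windows, the one with the most matches is drawn; Hspa1a and Hspa1b have their single match at the same position, -104.

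A further 82 chaperone genes from general knowledge, such as prefoldins, other J-domain proteins, immunophilins and small heat shock proteins, were read from the same fit. Of the 63 measured, by 99 probe sets, 0 genes passed in either direction by their brightest probe set, with 3 lower and 3 higher at an unadjusted p under 0.05 (4.76% each, beside 3.44% and 6.16% of all genes). Their median log2 change was -0.0003. With the day as a block, 1 gene (1.59%) was lower and 2 (3.17%) were higher, near the 2.12% and 3.92% of all genes.

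One probe set of this wider list passed, that of Uri1, a prefoldin-like protein. Probe set 1433913_at gave 39.5 and 35.9 in wild type and 148.1 and 127.7 in sanroque, 3.66-fold higher (log2 1.72, SE 0.222, limma adjusted p = 0.00359), and passed under all 13 alternatives. The other 2 Uri1 probe sets, whose signals ran from 170.4 to 321.4, had 0.07 and -0.10 and did not pass (limma adjusted p = 0.958 and 0.941). Fkbp5, an Hsp90 co-chaperone of steroid receptors, gave 110.0 and 88.0 in wild type and 176.9 and 167.6 in sanroque, log2 0.77 (limma adjusted p = 0.127; 0.00386 with the day as a block and 0.0363 without wild type array 1). Cdc37l1, a relative of Cdc37, gave 307.0 and 286.3 against 509.5 and 446.3, log2 0.67 (limma adjusted p = 0.126; 0.00326 with the day as a block). On these probe sets the sanroque arrays were above the wild type arrays. The other 2 Cdc37l1 probe sets overlapped, with log2 changes of 0.15 and -0.06, while the other Fkbp5 probe set had 0.67 (limma adjusted p = 0.246; 0.0269 with the day as a block).

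Hmox1, the heme oxygenase gene that oxidative stress induces, gave 53.3 and 46.5 in wild type and 91.6 and 70.6 in sanroque, log2 0.63 (limma adjusted p = 0.401). Serpinh1, the collagen chaperone Hsp47, gave 38.1 and 7.6 against 44.9 and 21.4, log2 0.61 (limma adjusted p = 0.832), with overlapping genotypes. With the day as a block, the prefoldin subunits Pfdn2 (log2 -0.53, adjusted p = 0.039) and Pfdn5 (log2 -0.50, adjusted p = 0.0308) were lower by 1 probe set each. The brighter Pfdn5 probe set did not pass with the block (log2 -0.36, adjusted p = 0.144). Dnajc28 had 1 probe set with a blocked adjusted p of 0.029, but its wild type signals of 11.2 and 7.1 lay under the filter's 21.3, which it passed through the sanroque signals of 43.7 and 25.6; the brighter Dnajc28 probe set had a log2 change of 0.0003.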

How the data were processed

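RNA of CD4 cells was measured on 4 MOE430A arrays, 2 per genotype. For each array the deposited values are linear intensities, 1 for a probe set; which algorithm summarised the probes is not given in the sources used here. Experiment information, whose fields are text or other values, gave the chip type and the hybridisation day, per the file headers. Of 22690 probe sets, 64 were controls, 20380 had 1 symbol, 691 had several and 1555 were not listed; names came from the platform annotation, updated through a RefSeq table. A filter kept probe sets with a mean signal of at least 21.3, the 40th percentile, and 13579 were tested, 12424 of them with 1 symbol.

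Genotypes were compared on log2(signal + 6) by limma 3.58.1 in R 4.3.3 (lmFit and eBayes with a variance trend, two-sided, Benjamini-Hochberg over all probe sets tested, threshold 0.05), without covariates. The script was tested on simulated data. Members and lists were chosen with earlier results of these data known. A gene was represented by its brightest tested probe set.

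Per-array values were given for members with a call, for those without overlap and with an absolute log2 change of at least 0.5, for the brightest member of each class and for the main chaperone of each compartment; of the wider list, for calls and the 4 largest changes. Stip1, Chordc1, Dnaja1, Hspa4l, Hspe1, Trap1, Pfdn2, Pfdn5 and Dnajc28 were partly chosen after their values were seen. Replicate numbers pair the arrays by hybridisation day, per the file headers. Across the tested probe sets, deviations of the 2 arrays numbered 1 from their genotype means correlated with 0.392. With 2 arrays per genotype, the deviations of the arrays numbered 2 mirror these and add nothing. The number of arrays limits the precision. The 3 prime over 5 prime ratios of Actb were 1.17 and 1.06 in wild type and 1.18 and 1.17 in sanroque. Those of Gapdh were 0.701 and 0.826 in wild type and 0.785 and 0.81 in sanroque, which overlap.

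Alternatives were blocks on the day or the title wording, each array left out, quantile normalization, centring on the median, pseudocounts of 1 and 24, no filter or one at the 60th percentile, eBayes with no trend, and averaging the probe sets of a gene. Plots used matplotlib 3.10.9 under Python 3.11.15.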

Additional observations from a re-analysis of the deposited data

How the results depend on the processing

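The count of chaperone probe sets called lower was 8 and became 5 without the variance trend, 17 with the replicate block (day), and 7 to 11 with each array left out; it was 6 to 9 under the other alternatives. The 4 genes called lower became 2 without a filter, 2 without the variance trend, 9 with the replicate block and 3 to 6 with each array left out. No member was called higher under any alternative run. In the wider list the replicate block gave 2 probe sets and 1 gene lower, and 5 probe sets and 2 genes higher; leaving out an array gave 1 to 2 probe sets and 0 to 1 gene higher. The block changed no call from lower to not passed among the 8 probe sets. Signs turned for the constitutive median (-0.237 to 0.0257 with each array left out; 0.024 without wild type array 2 and 0.0257 without sanroque array 1), Hsp90aa1 1438902_a_at (-0.409 to 0.0401; 0.0401 without wild type array 1, 0.0202 without sanroque array 2), Hspa8 1455789_x_at (-0.206 to 0.172; 0.172 without wild type array 2, 0.00123 without sanroque array 2, and 0.0751 with quantile normalization) and Hsp90b1 1415889_a_at (-0.342 to 0.146, the last without wild type array 1). The median log2 change of all probe sets was 0.0147, -0.0061 after quantile normalization and -0.0759 after centring. The cause of these changes was not tested. With 2 arrays per genotype, changes below about those called here may have gone undetected, and a probe set that did not pass is not shown to be equal between genotypes.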
